A study of Mus musculus with 121 samples.

Results

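S100a4, S100a6, S100a10, S100a11, Lgals1, Lgals3, Anxa1, Anxa2 and Anxa5 are 9 genes of small calcium-binding proteins, galectins and annexins, taken here out of the 31053 genes counted in cultured mouse fibroblasts whose medium was cycled between rich and poor. They were chosen by name from these families and not by a threshold, but with their levels by treatment and collection already known from earlier work on the same libraries, so those levels are given as a description. The RNA came from an immortalized mouse-ear fibroblast line of knockin mice, of genotype PER2::LUC sv, a luciferase fusion of the clock protein PER2 that every group carried. Cells at passage P25 received 12 h blocks of medium for 3 days, in which H held 25 mM glucose with insulin and L held 2 mM glucose without it, all with 1% FBS and 2% B27 without insulin. HL was given H then L in each cycle, LH the reverse order, and HH rich medium at every change. After 12 h without further change, RNA was taken in 6 collections 4 h apart and sequenced by 3′DGE, which reads the 3′ end of each transcript. That line was the only cell source, and no culture without medium changes is among the groups used here. The study's methods describe its replicates in general as biological, while the labels do not tie libraries of 1 treatment and collection to separate cultures.

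S100 proteins are small dimeric calcium sensors of the EF-hand type that change shape on binding calcium and then bind target proteins. Galectins bind galactose-containing sugars on secreted and cell-surface glycoproteins and are released without a signal peptide. Annexins bind acidic phospholipids in the presence of calcium and gather on the inner face of membranes, where annexin A2 is held in a complex by S100A10. All these families are well known from fibroblasts, where S100a4 (also called fibroblast-specific protein) and galectin-1 are used as markers of mesenchymal cells.

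HL had 21 libraries, LH 22 and HH 19, in sets of 2 to 4 per collection. They held 104912 to 11619095 counts, and apart from the lowest (LH collection 2 replicate 2) none was under 2136819. Levels are in counts scaled to a library total of 1000000 (CPM), which in 3′DGE do not grow with transcript length, although how well the 3′ end of each gene is captured is not known. The sources disagree on names. For 40 libraries, all of LH and those of HL outside collection 1, the study's read summary gives the library number another name (35) or does not list it (5), whereas HH is identical in both. Sample titles give the values below, and the values by library number (57 libraries, 19 per treatment, with 1 library in LH collection 5) stand beside them. In 54 of 54 listed libraries the second run held exactly the number of counted reads given under its library number, against 0 of 39 under the title where names conflict, which ties counts to numbers but does not say which name is right. Fibroblast markers summed to 17783 to 56657 CPM with all 12 detected, Col1a2 leading at 14955 CPM. Epithelial markers summed to at most 7.96 CPM, with Krt5 at 0 in every library. Macrophage and leukocyte markers summed to 15.6 to 45.7 CPM except in LH collection 2 replicate 2, at 600.5 CPM. Of 6 endothelial markers 5 averaged under 1 CPM (Kdr reached 172 CPM), and of 8 cartilage and muscle markers 7 did (Sox9 reached 520 CPM). In bulk RNA, fewer cells of a type and less RNA per cell cannot be told apart.

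The S100 members lie in 2 neighbouring pairs on chromosome 3 (GRCm38, GENCODE M21). S100a4 (90603771 to 90606045) and S100a6 (90612882 to 90624181) are 6837 bases apart, and S100a11 (93520488 to 93526287) and S100a10 (93555080 to 93564643) are 28793 bases apart, all on the plus strand. Anxa5 is on the minus strand of the same chromosome from 36448923 to 36475894. The others are spread over the genome, Anxa2 on chromosome 9 (69453620 to 69491795), Lgals3 on 14 (47367751 to 47386160), Lgals1 on 15 (78926725 to 78930465) and Anxa1 on 19 (20373428 to 20390944, minus strand). Genes annotated over S100a4 (Gm42674), Anxa1 (1500015L24Rik) and Anxa2 (Gm16144) averaged 0.0079, 0 and 0 CPM, and the counting's use of strand is not given in the sources used here.

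RefSeq promoter windows of 300 bases (GRCm38.p6, 250 before to 50 after the start) were matched by symbol for 7 of the 9 genes, S100a10 and Lgals1 not among them. Shown are the windows of Anxa2, which was called between collections 1 and 6 in HH under both namings, of S100a6, which was called in HL by library number, and of S100a11, which holds the most matches. Capitals mark matches, on either strand, to 4 motifs. The E-box CACGTG is bound by clock factors such as CLOCK and BMAL1. The AP-1 site was searched as TGAGTCA. The element of the nuclear receptors ROR and REV-ERB was searched as AGGTCA, which on the opposite strand reads TGACCT. The TATA box was searched as TATAAA.
Anxa2 (chr9:69453433-69453732, plus strand): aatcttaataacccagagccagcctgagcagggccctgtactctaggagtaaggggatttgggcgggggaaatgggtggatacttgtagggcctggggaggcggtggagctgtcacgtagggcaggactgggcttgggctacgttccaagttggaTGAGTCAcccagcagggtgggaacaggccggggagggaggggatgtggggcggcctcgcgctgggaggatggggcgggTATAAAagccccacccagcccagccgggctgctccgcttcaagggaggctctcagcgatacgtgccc
S100a6 (chr3:90612644-90612943, plus strand): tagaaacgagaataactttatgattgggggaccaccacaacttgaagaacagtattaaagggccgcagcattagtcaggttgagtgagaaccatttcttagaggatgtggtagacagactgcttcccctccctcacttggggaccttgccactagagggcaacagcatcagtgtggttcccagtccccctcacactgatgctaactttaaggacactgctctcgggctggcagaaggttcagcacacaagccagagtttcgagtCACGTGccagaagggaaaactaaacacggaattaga
S100a11 (chr3:93520246-93520545, plus strand): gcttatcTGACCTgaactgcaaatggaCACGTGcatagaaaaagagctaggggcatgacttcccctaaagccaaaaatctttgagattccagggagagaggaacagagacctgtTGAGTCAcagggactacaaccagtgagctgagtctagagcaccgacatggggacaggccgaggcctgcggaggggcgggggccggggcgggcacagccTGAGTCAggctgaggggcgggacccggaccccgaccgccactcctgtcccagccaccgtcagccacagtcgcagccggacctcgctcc
Counted from the start, the AP-1 match of Anxa2 began at -95 and its TATA box at -17, the E-box of S100a6 began at 15, and S100a11 held an E-box at -223, AP-1 matches at -136 and -38 and a ROR element at -243. S100a4 had a TATA box at -31 and a ROR element at -24, Anxa1 a TATA box at -32, and Lgals3 and Anxa5 no match. No matches overlapped in the printed windows. Of 32851 windows in the table, 7.15% held the E-box, 5.20% the AP-1 site, 16.3% the ROR element and 13.6% the TATA box, so a match is a description of the letters and not a bound site.

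All 9 genes were detected at 1 CPM or more in all 62 libraries, and together they took 1.0014% to 1.87% of the counted reads (median 1.47%). S100a4, S100a6 and Lgals1 made up 80.9% of that sum at the median library. S100a4 averaged 5457 CPM (3633 to 9123) and ranked 9 of 13292 genes tested by counts, and S100a6 averaged 3942 CPM (2686 to 4989) at rank 16. Lgals1 averaged 2612 CPM (1472 to 3682) and Anxa2 1195 CPM (573 to 2051). The remaining means were 729 CPM for S100a11 (346 to 1045), 281.1 for Lgals3 (184 to 430), 251.05 for S100a10 (146 to 466), 189 for Anxa5 (129 to 258.01) and 59.7 for Anxa1 (9.53 to 110.5). S100a6 had the narrowest range, its highest library being 1.86 times its lowest, while Anxa1 spanned 11.6 times, its lowest value resting on 1 count in the shallowest library.

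Over 55 libraries with at least 500000 counts in each of 2 runs, the SD of the log2 difference between runs was 0.023 for Lgals1, 0.043 for Anxa2 and 0.158 for Anxa1, the lowest, a middle and the highest value of the 9. Libraries of the same treatment and collection differed more, with an SD of log2 CPM of 0.158 for S100a6, 0.183 for Lgals1, 0.244 for Anxa2, 0.316 for S100a4 and 0.536 for Anxa1. In these 55 libraries the SD between runs was below the SD within treatment and collection for each of the 9 genes. With all 59 libraries of 2 runs, short runs included, the SD between runs was the larger for Anxa1 (1.0785), Lgals3 (0.360) and Anxa5 (0.257 against 0.172).

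**Figure D1:**
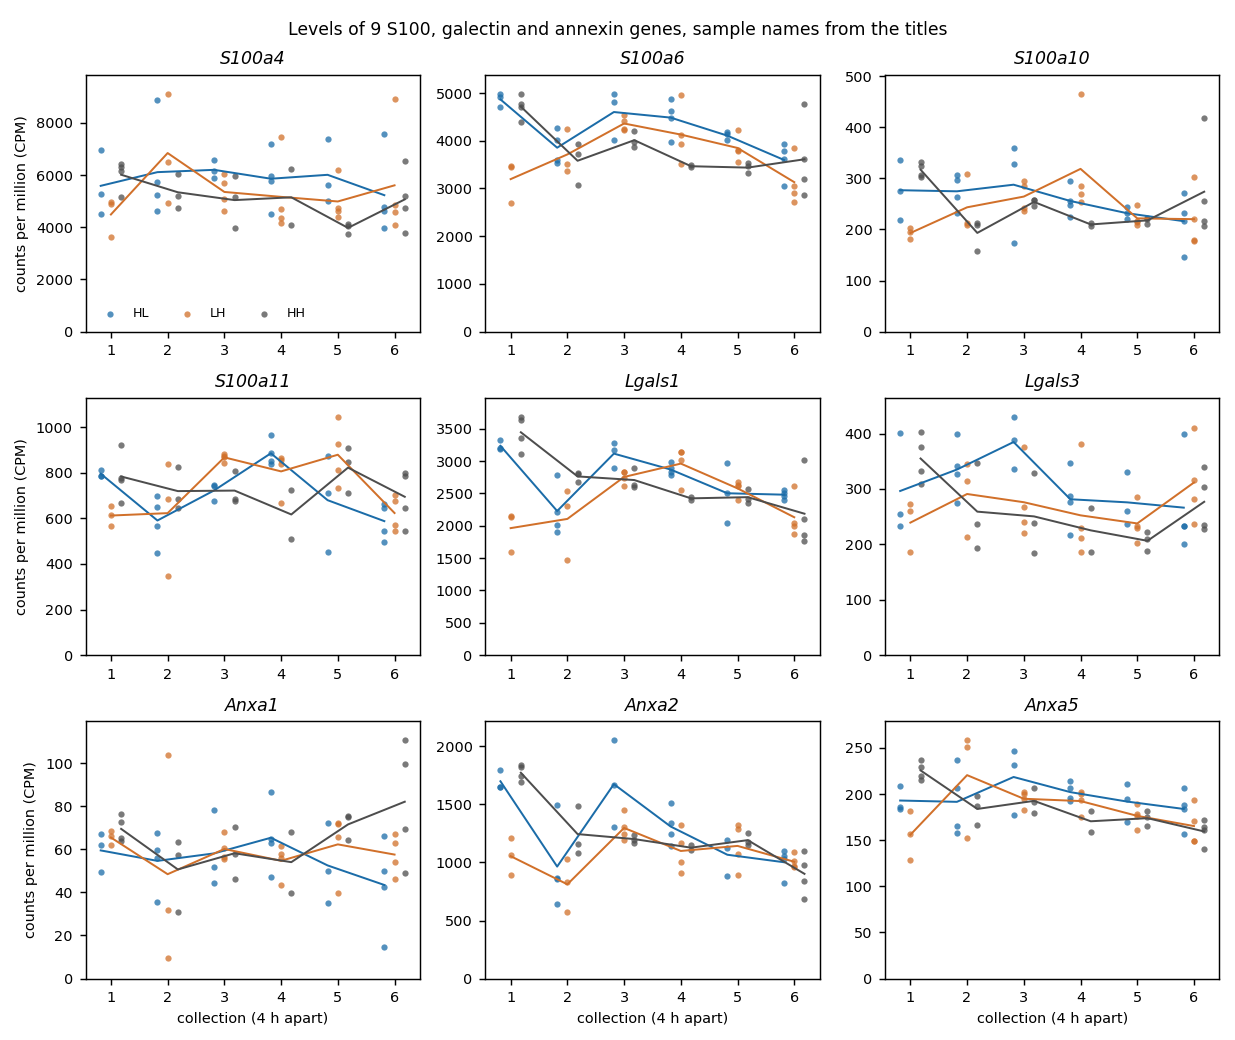
CPM (vertical axis, from 0) of each of the 9 genes over the 6 collections (horizontal axis), with libraries named by sample title, points for libraries and lines for the means of HL, LH and HH. In HH, Anxa2 and Lgals1 start above all their later libraries and end with their lowest means, whereas S100a4 and Lgals3 scatter widely within a collection.

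Among the annexins, Anxa2 was called over collections. It encodes annexin A2, a membrane and actin organiser that with S100A10 also binds plasminogen activators. In HH its 4 libraries of collection 1 measured 1690, 1741, 1842 and 1820 CPM, and the 4 of collection 6 measured 1097, 844, 687 and 981 CPM. None of the 15 later HH libraries reached the lowest of collection 1. The collection means ran 1773 ± 70.6 (SD, n = 4), 1245 ± 214 (n = 3), 1202 ± 36.4 (n = 3), 1128 ± 27.7 (n = 2), 1192 ± 53.5 (n = 3) and 902 ± 177 CPM (n = 4), so the level fell by 49.1% from the first to the last collection, with most of the drop in the first 4 h and the last 4 h. On the log2 scale the difference was -0.91 (SE 0.15, edgeR quasi-likelihood test with Benjamini-Hochberg adjusted p = 1.7e-04), and over all 6 collections of HH the adjusted p was 0.0059. That call was lost by titles without HH replicate 1, 2 or 3 (adjusted p up to 0.269). By library number all 12 fits that left out a replicate of any treatment kept it below 0.05 (at most 0.0317). Only those without an HH replicate change the HH libraries. These libraries are the same under both namings, and the fits share an estimate of the spread with HL and LH.

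For the other treatments the picture turns on the names. By titles Anxa2 of HL measured 1797, 1651 and 1651 CPM in collection 1, 854, 866, 640 and 1499 CPM in collection 2 and 2051, 1668 and 1306 CPM in collection 3, then declined to 1100, 1060, 822 and 1027 CPM in collection 6. Its mean thus dropped to 965 CPM, rose to 1675 CPM and dropped again, and the adjusted p over collections was 0.0065, which was lost without HL replicate 1, 2 or 3. In LH by titles collection 1 was already low at 893, 1210 and 1061 CPM and collection 6 was similar at 960, 1086, 966 and 1013 CPM. By library number both treatments were highest in collection 1 and lowest in collection 6. HL then ran from 1700 ± 84.6 CPM (n = 3) in collection 1 through 1334, 1088, 1133 and 1107 to 1022 ± 60.7 CPM (n = 3) in collection 6, and LH from 1739 ± 282.9 CPM (n = 3) through 1387, 1116, 1026 and 1027 to 934 ± 273.3 CPM (n = 4). The 3 libraries titled HL collection 3 belong by number to LH collections 1 and 2, and the 3 titled LH collection 1 belong to LH collection 6. The last-minus-first difference by number was -0.72 in HL (SE 0.15, edgeR adjusted p = 0.0065) and -0.82 in LH (SE 0.14, edgeR adjusted p = 3.5e-04), against -0.65 (SE 0.15) and -0.05 (SE 0.16) by titles. The call by number was lost in HL without HL replicate 1, 2 or 3 (adjusted p up to 0.181). In LH it was kept in all 12 fits that left out a replicate of any treatment, of which only those without an LH replicate change the LH libraries.

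**Figure D2:**
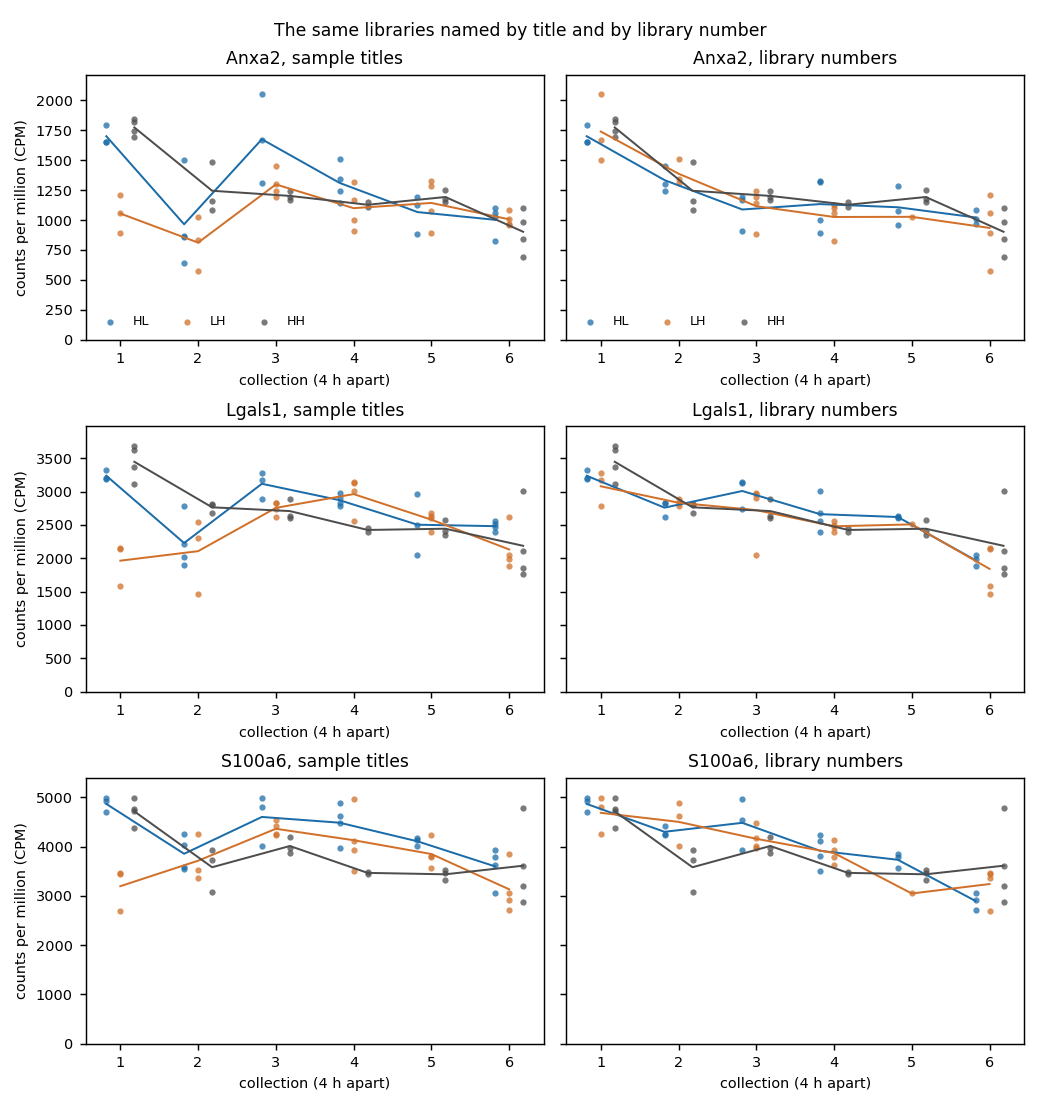
CPM of Anxa2, Lgals1 and S100a6 (vertical axes, from 0) over the 6 collections with libraries named by sample title (left) and by library number (right), points for libraries and lines for means of HL, LH and HH. By title LH starts low and HL dips at collection 2, while by number Anxa2 runs from 1700, 1739 and 1773 CPM to 1022, 934 and 902 CPM in HL, LH and HH.

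Anxa5, whose product binds phosphatidylserine on the surface of dying cells and is used to stain them, ran parallel in HH at a lower level. Its libraries of HH collection 1 measured 237.1, 215.5, 229.8 and 219.8 CPM and those of collection 6 measured 171, 161, 164 and 140 CPM, and again none of the 15 later libraries reached the lowest of the first. How many of all genes lie apart in this way was not counted, here or for the other genes described so. The log2 difference of Anxa5 was -0.42 (SE 0.14) and was not past the adjusted threshold. By titles HL and LH showed no such decline, at 193 to 184 CPM and 156 to 165 CPM between their first and last collections, and by number they went from 193 to 156 CPM in HL and from 238.4 to 181.4 CPM in LH. Anxa1, which encodes a glucocorticoid-inducible anti-inflammatory annexin, went the other way in HH, from 69.5 ± 6.0 CPM (n = 4) in collection 1 to 82.1 ± 28.1 CPM (n = 4) in collection 6, where libraries of 99.5 and 110.5 CPM stood beside 49.0 and 69.2 CPM. That difference of 0.33 (SE 0.27) lay within the spread between libraries. Its lowest well-covered library, HL collection 6 replicate 4 at 14.7 CPM, is by number the only library of LH collection 5.

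Among the galectins, Lgals1 was called between collections 1 and 6 of HH, as was Anxa2. Galectin-1 is a secreted galactose-binding dimer that links cell-surface and matrix glycoproteins. In HH it measured 3630, 3362, 3112 and 3682 CPM in collection 1 and 2112, 1852, 3014 and 1768 CPM in collection 6, and none of the 15 later libraries reached the lowest of the first. The 3014 CPM of replicate 3 stood well above its 3 companions and still below every library of collection 1. Means went from 3447 ± 263.7 CPM (n = 4) to 2187 ± 571 CPM (n = 4), so that the level fell by 36.5%, with a log2 difference of -0.57 (SE 0.13, edgeR adjusted p = 0.0165). The adjusted p over all HH collections was 0.0318 by library number, and by titles 0.104. The call by number was lost in 9 of 12 fits that left out a replicate of any treatment (adjusted p up to 0.260). The last-minus-first call was lost when HH replicate 1, 2 or 4 was left out (adjusted p up to 0.173), and without replicate 3 the difference grew to -0.85.

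By titles Lgals1 of LH had another shape. Its 3 libraries of collection 1 measured 1590, 2144 and 2158 CPM, collection 4 measured 3135, 3145, 2554 and 3014 CPM, and collection 6 returned to 2618, 1877, 1990 and 2044 CPM. The means rose from 1964 CPM to 2962 CPM and returned to 2132 CPM, with an adjusted p over LH collections of 0.0150 that was lost without LH replicate 1 or 2. The 24 h curve of Lgals1 differed among treatments by titles (edgeR adjusted p = 0.0288), a call lost in 9 of 12 fits that left out a replicate. By library number the rise was not there. HL then fell from 3181, 3325 and 3204 CPM to 1877, 1990 and 2044 CPM, and LH from 2780, 3179 and 3280 CPM to 1590, 2144, 2158 and 1472 CPM, without overlap in either. Differences by number were -0.70 in HL (SE 0.13, edgeR adjusted p = 0.0040) and -0.65 in LH (SE 0.12, edgeR adjusted p = 0.0026). The call in HL was lost without HL replicate 1, 2 or 3 (adjusted p up to 0.158), and that in LH without LH replicate 4 (0.0892).

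Lgals3 encodes galectin-3, a chimeric galectin that forms lattices and is also found in the nucleus. Its libraries scattered widely within a collection. HH libraries of collection 1 measured 309, 332, 375 and 403 CPM and those of collection 5, its lowest HH mean, 209, 188 and 222 CPM. Collection 6 spread again over 235.3, 228.5, 340.4 and 303.1 CPM, overlapping collection 1. It was not called over HH collections under either naming. In HL by titles the lowest, median and highest libraries were 200.2, 286.6 and 429.9 CPM, and in LH 186, 250 and 410 CPM, so the treatments overlapped almost entirely.

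Among the S100 genes, S100a6 was called over collections in HL by library number. Its product S100A6, or calcyclin, is a calcium sensor that binds CacyBP and annexins and was first found as a gene of growing cells. In HH it measured 4386, 4716, 4770 and 4989 CPM in collection 1 and 3194, 2865, 4778 and 3611 CPM in collection 6, overlapping only through replicate 3. Of the 15 later HH libraries, this replicate alone reached the lowest value of collection 1. By titles HL ran from 4866 ± 147 CPM (n = 3) to 3598 ± 389 CPM (n = 4) without overlap, and LH from 3196 ± 442 CPM (n = 3) up to 4362 ± 148 CPM (n = 4) in collection 3 and back to 3132 ± 493 CPM (n = 4). By number HL fell from 4917, 4700 and 4982 CPM to 2719, 2912 and 3055 CPM, with a difference of -0.74 (SE 0.14, edgeR adjusted p = 0.0040) whose call was lost without HL replicate 1, 2 or 3 (up to 0.0829), and LH went from 4262, 4984 and 4813 CPM to 2686, 3461, 3441 and 3372 CPM, with a difference of -0.42 (SE 0.13) that was not past the adjusted threshold.

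S100a10 encodes the annexin A2 partner that lacks a working calcium loop and keeps an open shape. Its HH libraries of collection 1 measured 304, 306, 333 and 325 CPM and those of collection 2, its lowest HH mean, 158, 209 and 213 CPM. In collection 6 it measured 206.3, 216.1, 418.2 and 255.3 CPM, overlapping collection 1, with replicate 3 above every other HH library. It was not called over HH collections under either naming. By titles LH held 181, 196 and 202 CPM in collection 1, its lowest mean, and 17 of 19 later libraries were at or above 181 CPM. By number LH held 297, 360 and 329 CPM in collection 1, and none of its 16 later libraries reached 297 CPM.

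S100a11, a partner of annexins A1 and A2 in membrane repair, differed over LH collections by titles. It measured 654, 617 and 567 CPM in collection 1, 881, 872, 844 and 876 CPM in collection 3 and 573, 546, 675 and 702 CPM in collection 6. Collection 3 lay apart from both ends, and the edgeR adjusted p over LH collections was 0.0215, which was lost without LH replicate 1 or 3. In HH the means were 784, 720, 722, 617, 823 and 695 CPM, lowest in collection 4. By number LH ran from 697, 744 and 748 CPM in collection 1 to 654, 617, 567 and 346 CPM in collection 6 and was not past the threshold.

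S100a4 encodes a motility-linked S100 protein that binds non-muscle myosin. It showed no collection effect that passed the threshold under either naming. Its HH libraries went from 5148, 6170, 6292 and 6442 CPM in collection 1 to 4031, 3756 and 4140 CPM in collection 5 and back to 4719, 3797, 6538 and 5214 CPM in collection 6. Single libraries reached 8859 CPM in HL collection 2, 9123 CPM in LH collection 2 and 8930 CPM in LH collection 6, each with companions at 4069 to 6490 CPM by titles.

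Beside the whole table these counts were as follows, and nothing is read from them since the members were known before. Over collections by titles, 1 of the 9 genes passed an adjusted p of 0.05 in HL (Anxa2, against 0.301% of all genes), 2 in LH (S100a11 and Lgals1, 2.93%) and 1 in HH (Anxa2, 0.293%), and 1 differed in its 24 h curve among treatments (Lgals1, 0.150%). By library number the counts were 3 in HL (S100a6, Lgals1 and Anxa2, 0.394%), 2 in LH (Lgals1 and Anxa2, 1.05%), 2 in HH (the same pair, 0.803%) and 0 for the curve in edgeR (0.00758%), where 1 gene had an unadjusted p under 0.05. Leaving out any 1 of the 4 HL replicate numbers removed all 3 calls by number in HL, and in LH both were lost without LH replicate 3 or 4. Collection 6 against collection 1 called Anxa2 and Lgals1 in HH by titles (0.685% of genes) and by number (1.26%), these with S100a6 in HL by number (0.500%), and Anxa2 and Lgals1 in LH by number (0.902%). Without the libraries under 1000000 counts, 3 genes passed over LH collections by titles (Lgals1 and S100a11 with Anxa5) and the other counts were the same. Of 7 macrophage and leukocyte markers, 4 (Csf1r, Lyz2, Ptprc and Tyrobp) also differed over LH collections by titles, and 1 (Csf1r) did without that library. The median difference of the 9 genes between these collections was -0.28 in HH, with 8 of 9 below 0, against 0.03 over all genes. By number it was -0.31 in HL with 9 of 9 below 0 and -0.42 in LH with 8 of 9 below 0, and by titles -0.27 (7 of 9) and 0.10 (3 of 9). In HH by titles the medians of the other S100, galectin and annexin genes and the fibroblast markers were -0.04, -0.12, 0.07 and -0.15. By number, in the same order, they were -0.09, 0.20, -0.36 and -0.05 in HL and -0.32, 0.46, 0.02 and -0.11 in LH.

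**Figure D3:**
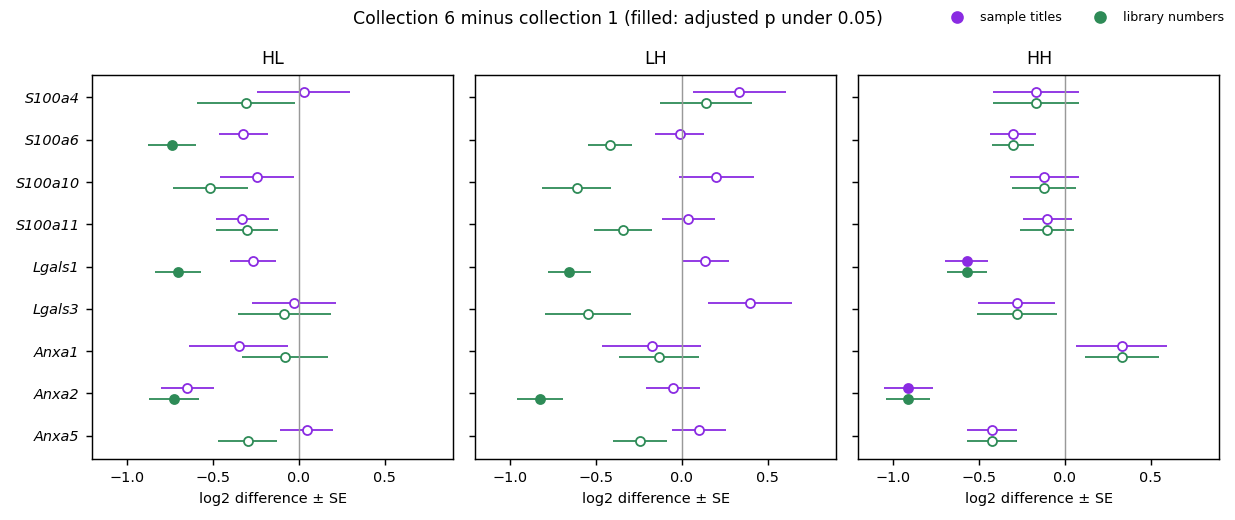
Log2 difference of collection 6 minus collection 1 (horizontal axis, points with SE bars) for each of the 9 genes in HL, LH and HH, by sample title (violet) and library number (green), filled where the adjusted p was under 0.05. Anxa2 and Lgals1 lie at -0.91 and -0.57 in HH, and in LH the 2 namings part, with Lgals1 at 0.14 by title and -0.65 by number.

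Of 12 fibroblast markers only the collagen gene Col1a1 was called in HH between collections 1 and 6, falling by 0.87 on the log2 scale (SE 0.23, edgeR adjusted p = 0.0499), and by number it was called in all 3 treatments. In HH 10 of the 12 were below 0, with a median of -0.15, and by number Col3a1 was called over LH collections. Counts on mitochondrially encoded genes took 3.02% in HH collection 1 and 1.74% to 2.47% in the later HH collections, and by number 3.10% in LH collection 1, though 2.49% in HL collection 1 against 2.51% in HL collection 6. By titles the share was highest in HL collection 3 (3.07%) and was 2.20% in LH collection 1 against 2.35% in LH collection 6. Over the 62 libraries this share had r = 0.43 with Anxa2 and 0.37 with Lgals1, and the share of ribosomal protein genes had r = 0.63 with S100a10 and 0.51 with S100a6. The part of either in the levels was not tested. Library totals had r = 0.53 with Anxa1 and between -0.15 and 0.18 with the other 8 genes.

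A 24 h rhythm was sought within each treatment with JTK_CYCLE, a rank test, at an unadjusted P of 0.01. By titles 0 of 9 genes passed in HL (0.466% of all genes), 2 in LH (0.933%) and 0 in HH (1.22%). Those of LH were S100a6 (P = 0.00143, phase 10 h after collection 1) and Lgals1 (P = 4.6e-04, phase 12 h). In LH by titles 0 passed without LH replicate 2 or 4. With the clock hours of the labels as time, 2, 0 and 1 passed in HL, LH and HH. By library number 0 passed in HL (1.03%) and 2 in LH (1.31%), now S100a6 (P = 0.00334, phase 4 h) and Anxa2 (P = 0.00728, phase 2 h). At an unadjusted P of 0.05 the JTK_CYCLE counts were 0, 5 and 2 by titles in HL, LH and HH, where 356, 509 and 626 of all 13292 genes passed. By number they were 1 and 2 in HL and LH, where 568 and 590 of all 13198 genes passed. None had an adjusted P under 0.05 in JTK_CYCLE, while in an edgeR cosinor fit by titles 1 of the 9 did, Lgals1 in LH (adjusted p = 0.0341), and 0 by number. With 6 collections in 24 h, a decline from first to last and the falling part of a rhythm cannot be told apart.

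Mean levels over all collections differed little between treatments. By titles S100a6 measured 4213 ± 546 CPM in HL (SD, n = 21), 3756 ± 600 in LH (n = 22) and 3860 ± 627 in HH (n = 19), and the log2 differences were -0.21 (SE 0.06) for LH against HL and -0.18 (SE 0.07) for HH against HL. Anxa2 measured 1259 ± 368 CPM in HL, 1081 ± 204 in LH and 1257 ± 319 in HH, with -0.25 (SE 0.08) for LH against HL and -0.18 (SE 0.08) for LH against HH. At a call rule of an unadjusted p under 0.01 over treatments and under 0.05 in the comparison, which has no multiple comparison test in its second step, these were the 2 genes called in LH against HL (1.16% of all genes), the 1 called in HH against HL (S100a6, 1.20%) and the 1 called in LH against HH (Anxa2, 0.910%). With a replicate left out by titles the counts were 0 to 3, 0 to 2 and 0 to 1, and without HL replicate 2 they were 0 in each. By library number the differences shrank to 0.03 (SE 0.06) and -0.07 (SE 0.06) for S100a6 and to 0.01 (SE 0.06) and 0.02 (SE 0.06) for Anxa2, and 0 of the 9 were called by edgeR in the 3 comparisons (1.34%, 0.568% and 1.63%, in the same order). Of the 9, 2, 0 and 2 had an unadjusted p under 0.05, a threshold to which those shares do not apply. With Benjamini-Hochberg adjustment 0 of 9 passed in edgeR by titles, where 4, 3 and 1 had an unadjusted p under 0.05 in LH against HL, HH against HL and LH against HH. The shares of all genes above are for the call rule and not for these unadjusted counts, from which nothing is read. DESeq2 called the same counts as edgeR by the call rule. The other 7 genes differed by at most 0.26 on the log2 scale between any treatments by titles, with Lgals3 at -0.26 (SE 0.11) and S100a4 at -0.24 (SE 0.11) for HH against HL and Lgals1 at -0.19 (SE 0.07) for LH against HL, none of them called.

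**Figure D4:**
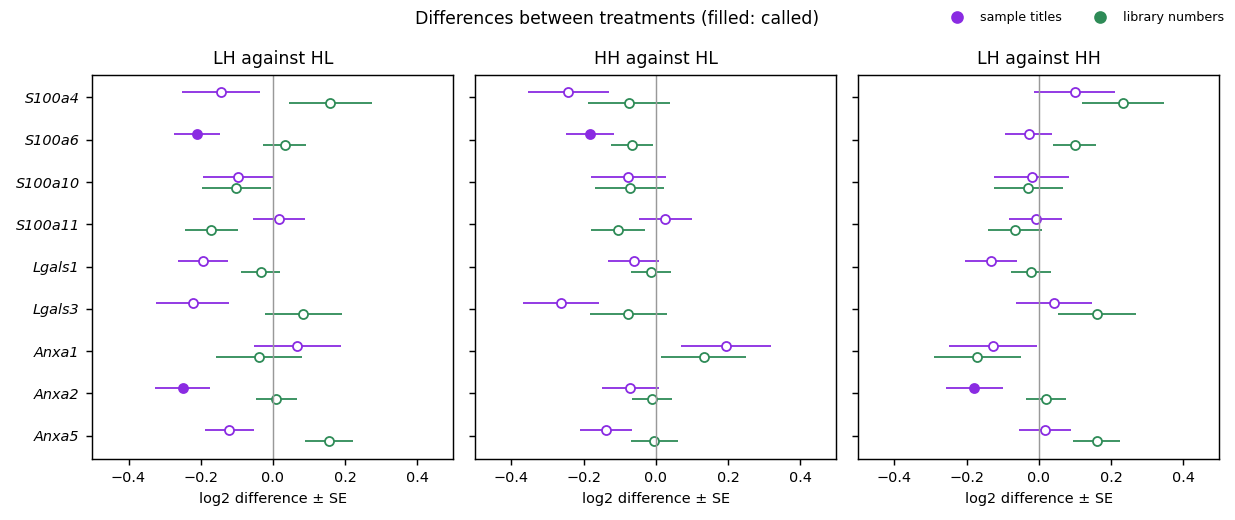
Log2 difference between treatments over all collections (horizontal axis, points with SE bars) for each of the 9 genes, by sample title (violet) and library number (green), filled where called (unadjusted p under 0.01 over treatments and under 0.05 in the comparison). The filled points are S100a6 at -0.21 and -0.18 and Anxa2 at -0.25 and -0.18 by title, and no point by number is filled.

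The 9 genes did not vary as a block from library to library. Over the 62 libraries, on the log2(CPM + 1) scale, S100a6 went with Lgals1 (r = 0.77) and S100a10 (r = 0.76), S100a4 with Lgals3 (r = 0.74) and Lgals1 with Anxa2 (r = 0.73). S100a4 ran against S100a11 (r = -0.43) and, within treatment and collection by titles, against both S100a11 (r = -0.62) and Anxa2 (r = -0.49). In those within-group deviations S100a6 and S100a10 still went together (r = 0.82), as did S100a4 and Lgals3 (r = 0.73), while Lgals1 and Anxa2 had r = 0.40, 0.33 by library number and -0.49 within the collections of HH (n = 19), whose names are not in dispute. Anxa2 and S100a10, partners as proteins, had r = 0.17 over all libraries and, within groups, -0.11 by titles, -0.36 by number and -0.54 in HH. The library with the highest S100a4 (9123 CPM) and Anxa5 (258.01 CPM) of all 62, titled LH collection 2 replicate 1, also held the lowest S100a11 (346 CPM), Lgals1 (1472 CPM) and Anxa2 (573 CPM). It had 4333104 counts. Among the 4 libraries of HH collection 6, replicate 3 had the highest S100a4, S100a6, S100a10, Lgals1, Lgals3 and Anxa1 and the lowest Anxa2. These correlations share library depth and composition and are descriptive.

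**Figure D5:**
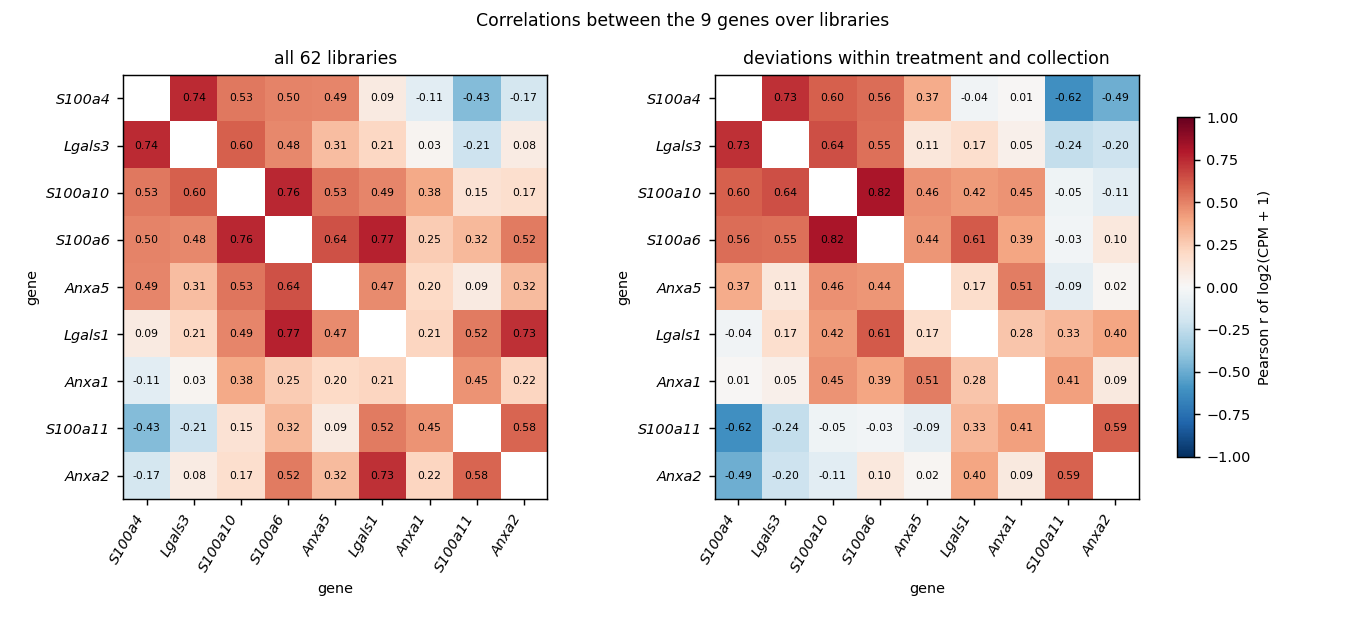
Pearson r between each pair of the 9 genes on the log2(CPM + 1) scale, over all 62 libraries (left) and over deviations from the mean of each treatment and collection by titles (right), red for positive and blue for negative r. S100a4 and Lgals3 (0.74 and 0.73) and S100a6 and S100a10 (0.76 and 0.82) stay together in both, while S100a4 and S100a11 oppose each other (-0.43 and -0.62).

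The genes outside the list most like the mean of the 9, by Pearson r over the 62 libraries, were Wls, a carrier of Wnt proteins (r = 0.81, mean 589 CPM), Timp1, a metalloproteinase inhibitor (0.80, 167 CPM), Bsg, the membrane protein basigin (0.78, 460 CPM), Cd63, a tetraspanin of late endosomes (0.77, 4439 CPM), and Mdh2, mitochondrial malate dehydrogenase (0.77, 358 CPM). The median r of the 13283 other genes was 0.11, and 31 of them had r of 0.7 or more.

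Other members of the 3 families averaged up to 804 CPM. Of 15 other S100 genes, 9 were tested and 4 averaged 20 CPM or more: S100a13 (95.7 CPM), S100a1 (55.6), S100a16 (51.0) and the binding-protein gene S100pbp (42.9). S100a8 and S100a9, abundant in myeloid cells, averaged 0.014 and 0.0079 CPM. Among 9 galectin-related genes 6 were tested, led by Lgals3bp, a secreted galectin-3 ligand, at 199 CPM (90.9 to 579), with Lgals8 at 36.9 CPM and Lgalsl at 25.3 CPM. Among 9 other annexins 7 were tested, led by Anxa6, an annexin with a duplicated core, at 804 CPM (339 to 1275), followed by Anxa4 (70.7 CPM), Anxa3 (53.7) and Anxa7 (40.2). No gene of these 3 lists was called between treatments or over collections under either naming. In edgeR, 0 to 2 genes of each list had an unadjusted p under 0.05 in a comparison. By library number Anxa7, a regulator of secretion and membrane fusion, rose in HH between collections 1 and 6 by 0.74 (SE 0.18, edgeR adjusted p = 0.0192), against Anxa2 falling there, and by titles it measured 0.74 (SE 0.21) with an adjusted p of 0.0700 in edgeR.

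Of 20 genes whose products bind the members or act with them, 19 were tested and 15 averaged 20 CPM or more. The annexin A2 and S100A10 partner Ahnak averaged 1040 CPM, the actin and myosin genes Tpm1 and Myh9 961 and 545 CPM, the galectin-1 receptor subunit Itgb1 663 CPM and the caveolar Cav1 375 CPM. Hmgb1, a secreted ligand of the S100 receptor RAGE, averaged 252.6 CPM, and Pdcd6ip and Pdcd6, linked to calcium-dependent membrane repair, 166 and 20.2 CPM. The calcyclin partners Sugt1 and Cacybp averaged 133 and 84.8 CPM, the repair gene Myof 117 CPM, Hras, whose product binds galectin-1, 45.3 CPM, and the plasminogen activator gene Plat 42.3 CPM. By titles 0 of 19 partner genes were called between treatments or over collections in edgeR, with 0 to 3 at an unadjusted p under 0.05 and 2 to 5 by library number. By library number 1 of 19 was called over collections, Dysf, which encodes the repair protein dysferlin, in HL, LH and HH. It averaged 15.7 CPM, below the level set for naming, and is named as the only call. From collection 1 to 6 Dysf changed by -1.32 in HL (SE 0.33), -1.15 in LH (SE 0.30) and -1.16 in HH (SE 0.28) by number. By titles the values were -1.05 (SE 0.36), -0.25 (SE 0.38) and -1.16 (SE 0.34). Of 18 other EF-hand genes, 17 were tested, led by Sparc at 13110 CPM, and 0 were called between treatments in edgeR, with 0 to 3 at an unadjusted p under 0.05. Over collections 1 was called, Myl12a, a myosin light chain gene, in LH by number.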

How the data were processed

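The 62 libraries of PER2::LUC fibroblasts were sequenced in up to 2 runs each. The authors deposited raw gene counts per run, without normalization, for 121 runs. The submitters' processing notes name bcl2fastq, STAR 2.6.0a, HTSeq 0.9.1 and mm10, and the counting's use of strand is not given in the sources used here. Reads assigned to no feature (18.4% to 29.1% of uniquely aligned reads of a run) and ambiguous reads stayed out of totals. Runs of a library were summed, including 4 second runs with only 10069 to 50239 counts, and symbols and positions came from GENCODE M21.

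CPM was computed per library total. The filter asked for 1 CPM in 3 or more libraries and kept 13292 genes by titles and 13198 by library number. Levels were tested with edgeR 4.0.16 (quasi-likelihood, TMM scaling, R 4.3.3, all treatments in 1 model, collection as a term), and collections with a mean for each treatment and collection. The 24 h curves were tested with treatment and, for each treatment, 24 h cosine and sine terms. JTK_CYCLE used a 24 h period and phases in 2 h steps. Adjusted p-values (Benjamini-Hochberg) are over all genes tested. The tests were checked on simulated data under title names, with changes larger than those called here, so the check does not cover differences of this size. Time followed collection order, since the clock hours in the labels are not evenly spaced. Alternatives were the library numbers, each run alone, leaving out libraries under 1000000 counts or each replicate, other scaling, no filter, DESeq2 1.42.0, a replicate block, no collection term, adjusted thresholds, a cosinor and clock hours. The block and the left-out replicates by library number were added after the data were seen. The members and gene lists were chosen with earlier results of these data known. Genes named are the members, genes of the family and partner lists with a mean of at least 20 CPM, and the 5 most correlated with the members' mean, and any other is named as a list's leading gene, marker or only call. Libraries under 1 treatment and collection number 2 to 4, which limits the precision of each mean.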

Additional observations from a re-analysis of the deposited data

Results flagged for a closer look

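In a group of 4 libraries, a library was singled out where its gap to the nearest companion took more of the group's range than Dixon's 95% limit allows. Over 117 such groups of the 9 genes, 8 values were so far apart, and chance alone gives about 1 in 20. By titles, 3 of the 8 were in the same library, LH collection 4 replicate 2, with S100a4 at 7452.5 CPM against 4158 to 4700 CPM in its companions, S100a10 at 466.1 against 253.2 to 285.6 CPM and S100a11 at 666.54 against 841 to 863 CPM. LH collection 6 replicate 1 held S100a4 at 8930.4 CPM against 4069 to 4847 CPM, and HL collection 6 replicate 3 held Lgals3 at 398.5 CPM against 200.2 to 233.8 CPM. By library number, the library titled LH collection 5 replicate 2 held S100a4 at 6202.4 CPM among HL collection 4 (others 4158 to 4391 CPM), the library titled LH collection 1 replicate 2 held S100a6 at 2685.9 CPM among LH collection 6 (others 3372 to 3461 CPM), and the library titled HL collection 5 replicate 2 held Lgals1 at 2045 CPM among LH collection 3 (others 2898 to 2980 CPM).

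The 24 h curve of Lgals1 differed among the treatments by titles (edgeR quasi-likelihood test, adjusted p = 0.0288). Means at collections 1, 4 and 6 were 1964, 2962 and 2132 CPM in LH and 3447, 2424 and 2187 CPM in HH. The call was lost in 9 of 12 fits that left out a replicate, and by library number the adjusted p was 0.99995.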

How the results depend on the processing

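Members called at an unadjusted p under 0.01 over treatments and 0.05 in the comparison were 2, 1 and 1 of 9 in LH against HL, HH against HL and LH against HH. Over collections in HL, LH and HH they were 1, 2 and 1, for the 24 h curve 1, and for rhythm in HL, LH and HH 0, 2 and 0. Between treatments (in the same order) library numbers, the replicate block by library number, no scaling beyond the library total and an adjusted p of 0.05 each gave 0, 0 and 0. Without a term for collection they were 1, 1 and 0, and in the second run alone 2, 2 and 0. Over collections in HL, LH and HH the counts were 3, 2 and 2 by library number, 3, 3 and 3 with the block by library number, 1, 4 and 2 in DESeq2, and 1, 1 and 2 without the filter. In LH they were 1 without scaling and 3 without libraries under 1000000 counts. The curve count was 0 by library number, with the block by library number, without scaling and in the second run. The rhythm counts were 2, 0 and 1 by clock hour, 0, 3 and 2 by cosinor, 1 for LH in the second run and 0 for LH when JTK_CYCLE was adjusted. Over all genes, 154, 160 and 121 were called between treatments, 40, 390 and 39 over collections in HL, LH and HH, 20 for the curve and 62, 124 and 162 for rhythm. Counts of genes that moved by more than 1.5 times were, by library number, 75 in HH against HL, 215 in LH against HH, 139 and 106 over collections in LH and HH, 1 for the curve and 136 for rhythm in HL. With the block by library number they were 309 in LH against HH, 129 over collections in HL and 1 for the curve, with 1.64 times the count in LH against HL and 7.26 times over HH collections. DESeq2 gave 103, 696 and 134 over collections and 39 for the curve. Without the filter there were 387, 399 and 335 between treatments, 638, 1254 and 498 over collections and 295 for the curve, and without scaling 24 over collections in HL, 0.577 times the count in LH and 11 for the curve. Over LH collections the first run alone gave 0.656 times the count and the second run 950 genes, with 8 for the curve and 32 for rhythm in HL. Rhythm counts were 209 and 54 in HL and LH by clock hour, 149, 434 and 382 by cosinor (6, 21 and 21 at an adjusted p of 0.05) and 0, 0 and 1 for adjusted JTK_CYCLE, and counts between treatments were 0 when adjusted.

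Leaving out each replicate by titles gave 0 to 3 members in LH against HL, 0 to 2 in HH against HL and 0 to 1 in LH against HH, 0 to 1, 0 to 3 and 0 to 1 over collections in HL, LH and HH, 0 to 1 for the curve, and 0 to 1, 0 to 3 and 0 to 0 for rhythm. By library number it gave 0 to 3, 0 to 2 and 1 to 2 over collections. Counts over all genes then ran from 6 to 87, 46 to 707 and 4 to 49 over collections by titles, from 4 to 22 for the curve and from 88 to 216, 91 to 322 and 71 to 2.25 times the count between treatments (the highest in both comparisons with HH being without HH replicate 4), with lowest counts of 36, 73 and 56 for rhythm. Libraries of 1 replicate number did not deviate together by titles (median r -0.0145 over 53 pairs, 18 over 0.1), and by library number the median was 0.245 over 43 pairs (34 over 0.1, lowest -0.092) against -0.0838 for other pairs. By library number, libraries of 1 replicate number thus tended to deviate together, which they did not by titles. The rule for pairing asked every pair to be over 0.1, which is strict, so the tests by number outside the block leave this tendency out. With the block by library number, members called over collections in HL, LH and HH were 3, 3 and 3, against 3, 2 and 2 without it. More genes were then called in each treatment. What libraries of 1 replicate number share was not tested. The replicate block by titles changed no count of members (2, 1 and 1 between treatments).

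By library number and with the block by library number, LH against HL turned to 0.0328 and 0.0398 for S100a6 and to 0.00942 and 0.0125 for Anxa2 on the log2 scale, and LH against HH to 0.0196 and 0.00595 for Anxa2. For collection 6 against collection 1 in LH, Lgals1 turned to -0.653 and -0.646 (-0.762 to -0.580 with a replicate left out by number, among them -0.660, -0.661 and -0.686 without HL replicate 4, HH replicate 4 and LH replicate 3), Anxa5 to -0.624 without LH replicate 4 by number and S100a10 to -0.574 with the block by number, both past the threshold in edgeR (adjusted p = 0.0087 and 0.044). By number alone they were already below 0, at -0.24 and -0.61, and not past it. Each of these values takes the library numbers as names, and the cause of the other changes was not tested. The libraries of 104912 and 2136819 counts limit the precision of low members such as Anxa1 most.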
